A study of Mus musculus with 12 samples.

Results

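Testes of virus-treated F0 mice fell into 2 sets of groups that were compared across all genes: KD and 3NC on one side, OV and 5NC on the other. The comparison used all 12 libraries of the series, 6 a side, with each group of 3 weighted equally, and covered 16320 of the 20718 genes in the deposited table. In KD a virus inhibited the long noncoding RNA lncRNA8276. The labels do not spell out 3NC, which the design statement lists beside the knockdown. In OV a virus overexpressed the same RNA, and 5NC stands beside it in that statement. Both NC groups were taken as control viruses, an inference from this order and from common vector names. All groups share the strain, given as IRC mouse, the F0 generation, the testis and a virus. No source used here gives the virus type, the cells it reached, the age of the mice or any pooling.

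The sets differ in more than the lncRNA: KD and OV carry opposite manipulations of it, whereas 3NC and 5NC, if control viruses as taken here, carry none. The 2 pairs, KD against OV and 3NC against 5NC, share no library, so each gives its own value for every gene. The labels name no batch, collection date or litter, and the virus and any such difference between the sets cannot be told apart. Nor do they say whether each library came from its own mouse, so a p-value here weighs a difference against the spread of libraries, which may be technical. The lncRNA itself was not analysed here, since 0 symbols of the table carry its number.

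Immediate early genes, which lead what follows, are a class that cells switch on within minutes of a growth factor, hormone, injury or stress signal, without making new protein first. Many encode transcription factors of the EGR, AP-1 (FOS and JUN) and NR4A families. Others encode brakes on the same signals, such as the MAP kinase phosphatase DUSP1, the mRNA decay factor ZFP36 and the anti-proliferative protein BTG2. In the testis such genes are known to respond to hormones in Leydig and Sertoli cells.

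The sequences before the start of these genes are shown because 6 of the genes described next moved together and their windows are in the reference table. Windows run from 250 bases before to 50 bases after the gene start, 5′ to 3′ on the gene's strand, from RefSeq (GRCm38.p6). The Fosb window is an exception: the start it was set on lies inside the Fosb gene span given below. The windows are Fos chr12:85473640-85473939 (plus strand), Fosb chr7:19309996-19310295 (minus strand), Junb chr8:84978699-84978998 (minus strand), Btg2 chr1:134079106-134079405 (minus strand), Zfp36 chr7:28379179-28379478 (minus strand) and Dusp1 chr17:26508423-26508722 (minus strand). Capitals mark matches, on either strand, to the cAMP response element TGACGTCA, to its half-site TGACG, to the EGR motif GCGNGGGCG and to the CArG box of serum response factor. A full element holds a half-site on each strand, and below such half-sites are not named apart from it.
Fos: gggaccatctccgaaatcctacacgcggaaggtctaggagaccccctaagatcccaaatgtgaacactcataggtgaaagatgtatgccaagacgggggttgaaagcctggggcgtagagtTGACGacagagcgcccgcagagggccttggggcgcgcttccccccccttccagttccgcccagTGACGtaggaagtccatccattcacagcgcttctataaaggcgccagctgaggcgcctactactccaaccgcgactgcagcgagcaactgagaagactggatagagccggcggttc
Fosb: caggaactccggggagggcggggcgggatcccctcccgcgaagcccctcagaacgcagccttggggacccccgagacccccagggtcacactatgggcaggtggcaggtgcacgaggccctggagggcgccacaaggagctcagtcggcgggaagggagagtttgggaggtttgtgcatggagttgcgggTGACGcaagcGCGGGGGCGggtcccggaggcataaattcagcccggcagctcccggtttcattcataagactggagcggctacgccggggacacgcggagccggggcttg
Junb: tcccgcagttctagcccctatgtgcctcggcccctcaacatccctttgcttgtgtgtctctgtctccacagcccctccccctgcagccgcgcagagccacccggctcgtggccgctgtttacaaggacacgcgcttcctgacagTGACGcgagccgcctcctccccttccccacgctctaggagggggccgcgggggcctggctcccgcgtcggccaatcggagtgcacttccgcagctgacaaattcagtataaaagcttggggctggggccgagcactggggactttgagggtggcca
Btg2: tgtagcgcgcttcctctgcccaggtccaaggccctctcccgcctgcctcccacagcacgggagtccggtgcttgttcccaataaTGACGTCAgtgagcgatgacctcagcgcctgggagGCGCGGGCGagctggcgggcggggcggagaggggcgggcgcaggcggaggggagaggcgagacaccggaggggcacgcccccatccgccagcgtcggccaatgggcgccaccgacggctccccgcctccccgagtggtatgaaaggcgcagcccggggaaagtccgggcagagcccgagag
Zfp36: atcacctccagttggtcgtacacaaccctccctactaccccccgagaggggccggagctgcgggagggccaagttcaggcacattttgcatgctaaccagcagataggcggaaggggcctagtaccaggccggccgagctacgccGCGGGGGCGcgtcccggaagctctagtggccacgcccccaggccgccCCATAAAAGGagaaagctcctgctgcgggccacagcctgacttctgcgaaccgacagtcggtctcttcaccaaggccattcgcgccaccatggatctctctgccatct
Dusp1: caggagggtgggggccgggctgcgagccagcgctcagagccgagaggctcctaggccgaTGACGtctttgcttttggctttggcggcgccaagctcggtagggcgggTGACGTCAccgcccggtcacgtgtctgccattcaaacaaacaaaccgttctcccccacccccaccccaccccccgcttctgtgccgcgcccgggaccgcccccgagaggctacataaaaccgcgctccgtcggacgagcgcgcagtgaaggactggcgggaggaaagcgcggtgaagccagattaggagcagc

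Fos held half-sites that begin 129 and 66 bases before the start, and Junb 1 at 106 bases. Fosb held a half-site at 60 bases and an EGR match at 50 bases before the start used for its window. Both Fosb matches lie inside its gene span given below. Btg2 held a full element at 166 bases and an EGR match at 131 bases. Zfp36 held an EGR match at 105 bases and a CArG box at 58 bases, and Dusp1 a full element at 143 bases and a half-site at 191 bases. Of 32851 windows in the table, 1.79% held the full element, 20.8% the half-site (full elements included), 5.55% the EGR motif and 1.63% the CArG box. These matches describe letters only.

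Libraries held 15448442 to 16355720 estimated reads, and 18611 to 18788 genes had a read. Between the sets, a two-sided exact permutation test of 6 against 6 libraries gave p = 0.630 for totals and p = 0.0866 for the number of genes with a read. Levels are given in CPM, a gene's share of the reads of its library on one scale for all libraries. Germ cell genes mark the tissue: Prm1, a protamine, had 2664 to 3416 CPM over the libraries and Ddx4, a germ cell helicase, 551 to 743. Principal component 1 (19.1% of the variance) set apart 3NC replicate 2 and OV replicates 1 and 3. The genes that passed and the main lists are also given without these 3 libraries, a fit in which the 1 OV library left is assumed to vary like the others. The 3 were picked from these same data, so that fit is no independent check. Leaving out outlying libraries can also lower the spread.

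KD and 3NC testes differed from OV and 5NC testes in few genes, led by immediate early genes. By edgeR's quasi-likelihood test with Benjamini-Hochberg adjustment, 25 of 16320 genes passed at an adjusted p under 0.05 (0.153%). Such genes are said to have risen or fallen, and changes are log2 fold changes ± SE of KD and 3NC over OV and 5NC unless a pair is named. Of these, 19 were higher in KD and 3NC (0.116%) and 6 lower (0.0368%). At an unadjusted p under 0.05 there were 420 higher (2.57%) and 685 lower (4.2%). The count rests on the groups: without 3NC it was 7, without KD 53, without 5NC 30 and without OV 35. Without 3NC replicate 2 and OV replicates 1 and 3 together it was 84, of which 18 were among the 25. Leaving out 1 library moved it to between 16 and 57, with 16 without KD replicate 1, 45 without 3NC replicate 2 and 57 without OV replicate 3.

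**Figure D1:**
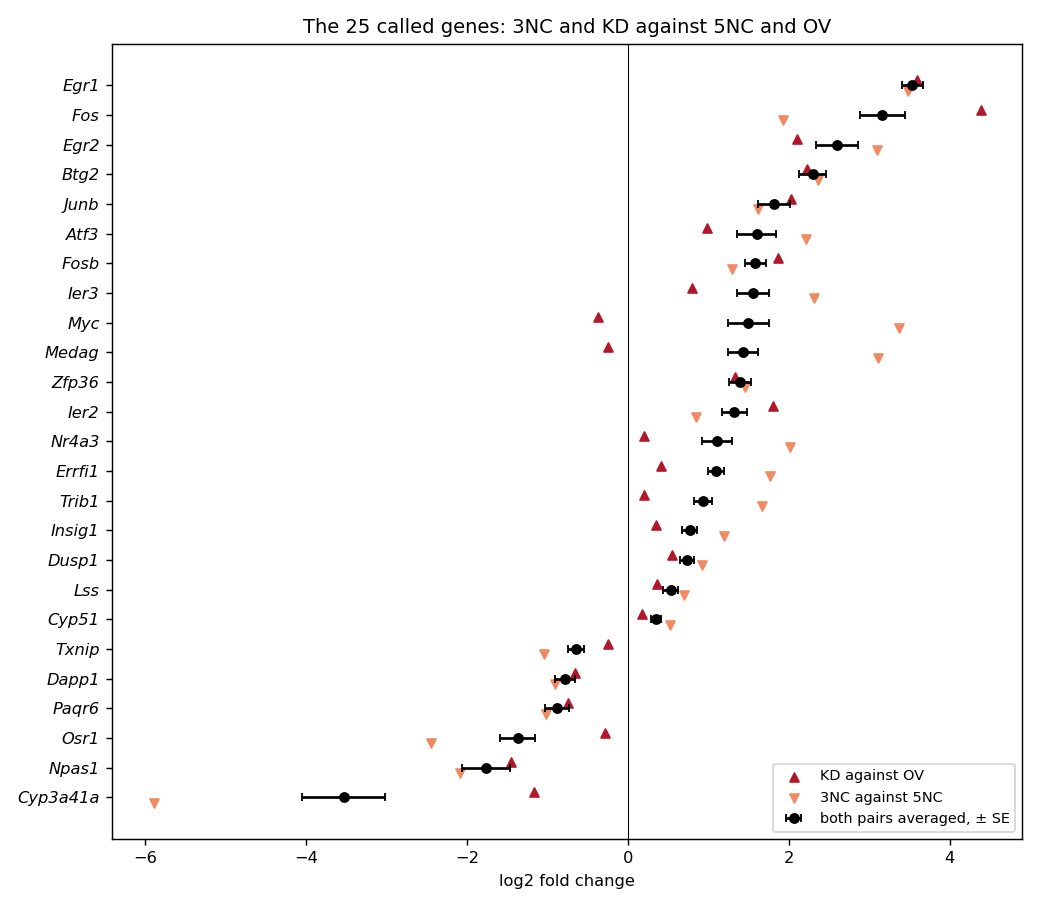
Log2 fold change (x axis) of each of the 25 genes that passed (y axis), with KD against OV as upward triangles, 3NC against 5NC as downward triangles, and their average with its standard error as black points. Egr1 and Btg2 show like values in both pairs, while Myc and Medag are positive only by way of 3NC against 5NC.

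Of the 25 genes, 12 did not overlap between the 6 libraries of one side and the 6 of the other: 10 higher and 2 lower in KD and 3NC. Over all genes tested, 30 lay higher without overlap (0.184%) and 23 lower (0.141%), of which 20 and 21 did not pass the test. The 12 are described first. In bulk tissue, a change in the number of cells that hold an RNA and a change in RNA per cell cannot be told apart.

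Of the EGR family, Egr1 encodes a zinc finger transcription factor that is a standard readout of ERK signalling. Egr1 (gene 13653) had 53.4, 52.4 and 50.3 CPM in KD, 54.1, 50.7 and 46.8 CPM in 3NC, 5.38, 3.76 and 3.81 CPM in OV, and 6.10, 3.28 and 4.10 CPM in 5NC. The lowest KD or 3NC library lay more than 40 CPM above the highest OV or 5NC library. Egr1 rose 11.6-fold in KD and 3NC (log2 fold change 3.54 ± 0.13 SE, adjusted p = 1.26e-09). The rise was 3.59 ± 0.18 in KD against OV and 3.48 ± 0.18 in 3NC against 5NC, and the difference between the pairs did not pass (−0.11 ± 0.25, adjusted p = 0.842). Per length, Egr1 averaged 17.3 FPKM in KD and 3NC and 1.51 FPKM in OV and 5NC.

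Egr2, a relative of Egr1 known for its part in nerve myelination (gene 13654, chromosome 10, 67534469 to 67542188), had 2.93, 1.94 and 1.40 CPM in KD, 4.50, 5.60 and 4.72 CPM in 3NC, 0.513, 0.313 and 0.624 CPM in OV, and 0.915, 0.328 and 0.448 CPM in 5NC. All 3 libraries of 3NC lay above all of KD, and both groups lay above OV and 5NC. Egr2 rose 6.06-fold (2.60 ± 0.26, adjusted p = 0.000224). Without 3NC it had 1.97 and did not pass (adjusted p = 0.0904), whereas without 3NC replicate 2 and OV replicates 1 and 3 it passed (2.86). Egr3 (0.21 ± 0.08) and Egr4 (0.04 ± 0.22) did not pass, so 2 of 4 tested EGR genes rose, where 0.116% of all genes did.

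Of the AP-1 family, Fos, Fosb and Junb encode subunits of the dimeric transcription factor AP-1, and Atf3 a stress-induced partner of them. Fos (gene 14281, chromosome 12, 85473890 to 85477274) had 8.73, 18.3 and 10.5 CPM in KD, 3.72, 4.81 and 2.89 CPM in 3NC, 0.769, 0.814 and 0.187 CPM in OV, and 1.28, 0.920 and 0.768 CPM in 5NC. KD lay above 3NC, and 3NC above both other groups, in every library. Fos rose 8.94-fold (3.16 ± 0.28, adjusted p = 9.68e-05). It was the reverse of Egr2 in that KD was the higher group: 4.39 ± 0.40 in KD against OV (adjusted p = 0.000313) and 1.93 ± 0.39 in 3NC against 5NC (adjusted p = 0.0587). The test of the difference between the pairs did not pass (adjusted p = 0.21).

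Fosb (gene 14282, chromosome 7, 19302696 to 19310118) had 7.26, 5.63 and 7.90 CPM in KD, 5.91, 6.51 and 4.92 CPM in 3NC, 1.99, 1.88 and 1.81 CPM in OV, and 2.5, 2.43 and 2.11 CPM in 5NC. OV and 5NC varied little, and no library of theirs reached the lowest of KD and 3NC. Fosb rose 3.00-fold (1.58 ± 0.13, adjusted p = 4.02e-05), by 1.87 ± 0.19 in KD against OV and 1.30 ± 0.18 in 3NC against 5NC. Junb (gene 16477, chromosome 8, 84976909 to 84978748) had 16.0, 19.0 and 13.0 CPM in KD, 15.3, 10.5 and 15.5 CPM in 3NC, 5.77, 3.32 and 2.75 CPM in OV, and 6.22, 3.55 and 3.65 CPM in 5NC. OV replicate 1 and 5NC replicate 1 were the highest of their groups and still lay under every KD and 3NC library. Junb rose 3.53-fold (1.82 ± 0.20, adjusted p = 0.000743).

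Atf3 (gene 11910, chromosome 1, 191170296 to 191183333) averaged under 1 CPM and is named although the rule for named genes asks for that level. It had 1.15, 1.23 and 0.765 CPM in KD, 1.80, 2.19 and 1.97 CPM in 3NC, 0.384, 0.564 and 0.624 CPM in OV, and 0.610, 0.328 and 0.320 CPM in 5NC. KD replicate 3 stood nearest to the other side, above it by less than 0.2 CPM. Atf3 rose 3.03-fold (1.60 ± 0.24, adjusted p = 0.0104), and it did not pass without 3NC (adjusted p = 0.507), without 5NC (0.0924), without KD replicate 1 (0.0523), without KD replicate 2 (0.0513), or without 3NC replicate 2 and OV replicates 1 and 3 (0.0905). Fosl2, Jun, Fosl1 and Jund did not pass, with log2 fold changes of 0.92 ± 0.20, 0.31 ± 0.09, 0.59 ± 0.23 and 0.16 ± 0.16. Of 8 tested AP-1 genes, 4 rose and 0 fell, against 0.116% and 0.0368% of all genes.

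The genes of the brakes BTG2 and ZFP36 rose by like amounts in both pairs. Btg2 (gene 12227, chromosome 1, 134074865 to 134079155) had 21.7, 31.5 and 15.9 CPM in KD, 24, 23.5 and 21.9 CPM in 3NC, 6.21, 4.13 and 4.43 CPM in OV, and 5.49, 4.01 and 3.91 CPM in 5NC. KD and 3NC had the same mean, 23.1 CPM, with the wider spread in KD (SD 7.88 CPM in KD and 1.07 CPM in 3NC, n = 3 each). Btg2 rose 4.91-fold (2.30 ± 0.16, adjusted p = 1.39e-05), by 2.23 ± 0.23 in KD against OV and 2.37 ± 0.23 in 3NC against 5NC. Zfp36, which speeds the decay of cytokine mRNAs (gene 22695, chromosome 7, 28376784 to 28379228), had 12.3, 17.3 and 10.005 CPM in KD, 13.6, 14.4 and 12.1 CPM in 3NC, 6.34, 4.76 and 4.68 CPM in OV, and 5.61, 4.34 and 4.61 CPM in 5NC. Its OV and 5NC libraries all lay under 7 CPM and its KD and 3NC libraries at 10 CPM or above. Zfp36 rose 2.63-fold (1.39 ± 0.14, adjusted p = 0.000224), again by near amounts in KD against OV (1.33 ± 0.20) and 3NC against 5NC (1.46 ± 0.20). Their relatives Btg1 (0.08) and Zfp36l1 (0.17) did not pass.

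Ier2, an early response gene of little known function (gene 15936, chromosome 8, 84661331 to 84662852), had 7.83, 10.9 and 8.16 CPM in KD, 6.68, 4.38 and 6.10 CPM in 3NC, 2.43, 2.76 and 2.496 CPM in OV, and 4.03, 2.89 and 2.62 CPM in 5NC. KD was the higher group of its side, and 3NC replicate 2 lay close above 5NC replicate 1. Ier2 rose 2.5-fold (1.32 ± 0.15, adjusted p = 0.000837). Without KD it had 0.99 and did not pass (adjusted p = 0.0612). Dusp1, the phosphatase that switches MAP kinases off (gene 19252, chromosome 17, 26505591 to 26508472), had 14.4, 15.1 and 15.2 CPM in KD, 16.2, 18.4 and 17.2 CPM in 3NC, 10.8, 11.2 and 8.49 CPM in OV, and 9.28, 9.46 and 8.64 CPM in 5NC. The 4 groups were tight, with the sides more than 3 CPM apart at their nearest. Dusp1 rose 1.66-fold (0.73 ± 0.09, adjusted p = 0.000912), and without 3NC it did not pass (adjusted p = 0.0956). Both genes passed without 3NC replicate 2 and OV replicates 1 and 3 (1.35 for Ier2 and 0.64 for Dusp1).

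Both genes that fell without overlap lie on chromosome 3. Dapp1 encodes an adaptor protein of lymphocyte receptor signalling. Dapp1 (gene 26377, chromosome 3, 137931007 to 137981549) had 9.62, 6.86 and 6.95 CPM in KD, 8.99, 6.997 and 6.36 CPM in 3NC, 11.4, 14.1 and 11.5 CPM in OV, and 12.3, 15.9 and 13.6 CPM in 5NC. Replicate 1 was the highest of both KD and 3NC and lay under every OV and 5NC library. Dapp1 fell to 0.582 of its OV and 5NC level (−0.78 ± 0.12, adjusted p = 0.017). Paqr6, a membrane receptor of the progestin and adipoQ receptor family (gene 68957, chromosome 3, 88364072 to 88368541), had 2.93, 3.88 and 3.76 CPM in KD, 4.11, 2.98 and 3.21 CPM in 3NC, 5.19, 5.51 and 6.99 CPM in OV, and 9.03, 5.71 and 6.21 CPM in 5NC. Every KD and 3NC library lay under 5 CPM and every OV and 5NC library above it. Paqr6 fell to 0.542 of its OV and 5NC level (−0.88 ± 0.15, adjusted p = 0.0274). Dapp1 did not pass without 3NC (adjusted p = 0.171) or without 5NC (0.158), and Paqr6 did not pass without 3NC (adjusted p = 0.245), KD (0.140) or 5NC (0.145). Single libraries also ended the calls: Dapp1 did not pass without KD replicate 2 or 3, 3NC replicate 3, OV replicate 2 or 5NC replicate 2 (adjusted p = 0.0549 to 0.0735). Paqr6 did not pass without any 1 of the 3 KD libraries, 3NC replicate 3, OV replicate 2 or 5NC replicate 1 (adjusted p = 0.0612 to 0.127). With 3NC replicate 2 and OV replicates 1 and 3 left out together, Dapp1 passed (−0.85) and Paqr6 did not (−0.79, adjusted p = 0.148).

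**Figure D2:**
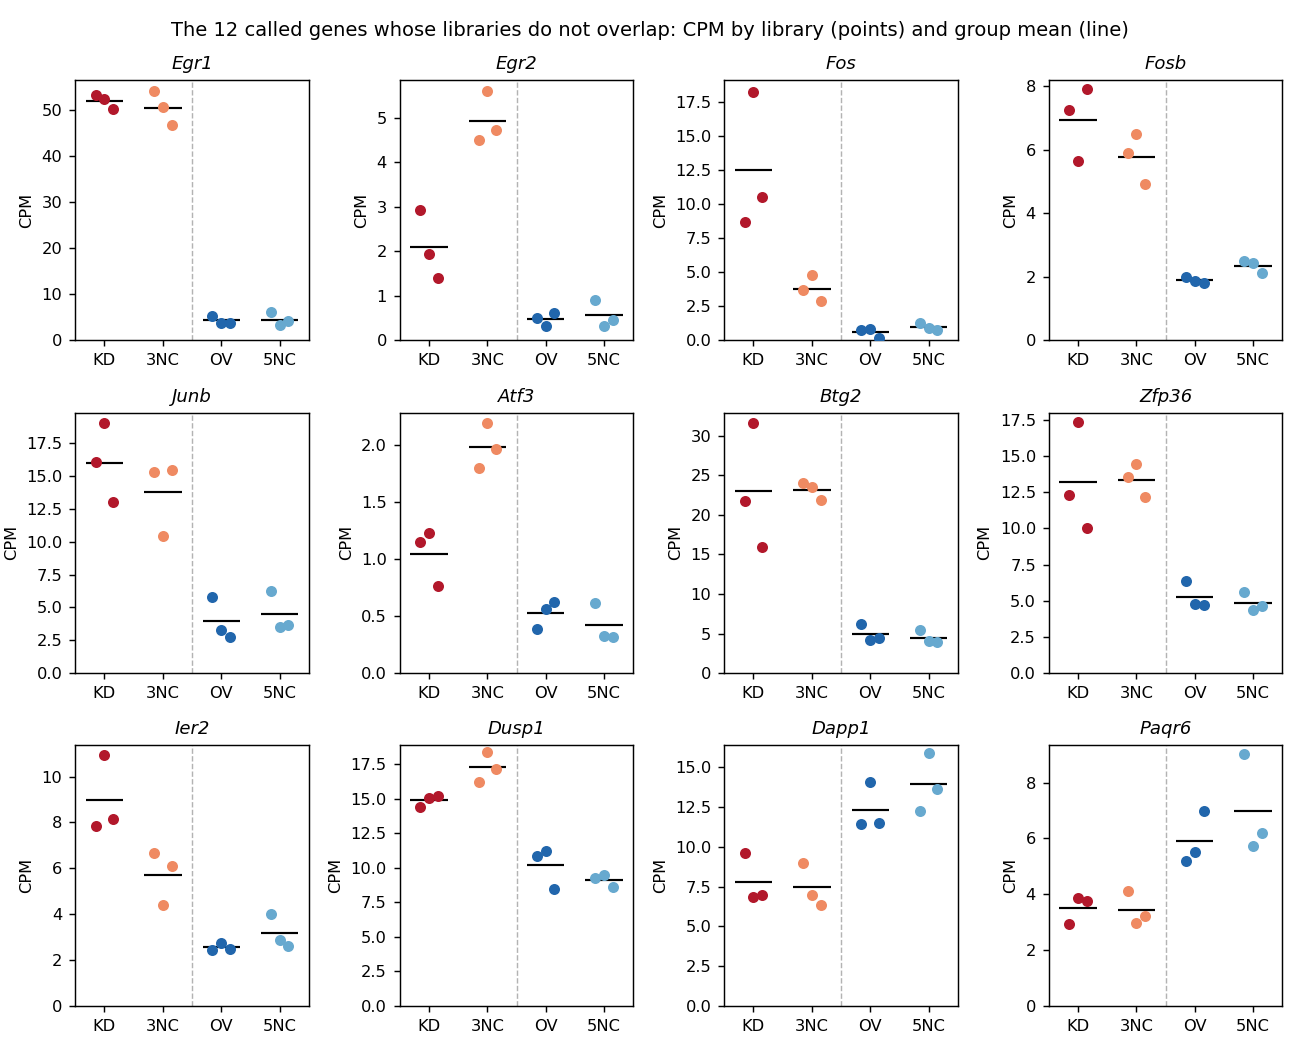
CPM (y axis, from 0) in each library, by group (x axis), for the 12 genes that passed and whose sides do not overlap; points are libraries and lines group means. In each panel the 6 KD and 3NC points lie on one side of all OV and 5NC points: above them for 10 genes, below them for Dapp1 and Paqr6.

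Under every setting tried, 6 of these genes passed. Egr1, Btg2, Fosb, Fos, Junb and Zfp36 did so with each of the 4 groups left out in turn and in all 27 alternatives of sample choice, test, filter and unit. Over these alternatives the log2 fold change lay between 2.88 and 3.68 for Egr1, 1.74 and 2.42 for Btg2, and 0.79 and 1.75 for Fosb. For Fos it lay between 1.70 and 4.01 and for Junb between 1.49 and 2.02. Without 3NC replicate 2 and OV replicates 1 and 3, the values were 3.63 for Egr1, 2.42 for Btg2, 2.83 for Fos, 1.54 for Fosb, 2.02 for Junb and 1.44 for Zfp36, and all passed.

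Each pair was also tested alone. In KD against OV, 9 genes passed (0.0551%), 7 higher (0.0429%) and 2 lower (0.0123%). In 3NC against 5NC, 59 passed (0.362%), 47 higher (0.288%) and 12 lower (0.0735%). The test of the difference between the pairs called 10 genes (0.0613%). Both pairs called Egr1, Btg2, Fosb, Zfp36 and Junb, all higher; these 5 are 55.6% of the calls of KD against OV and 8.47% of those of 3NC against 5NC. The remaining calls of KD against OV were Fos and Ier2 on the higher side and, named after their values were seen, Gm1966 and Stxbp3 on the lower side. Across all genes, 37.0% had the same sign in both pairs, and the values of the pairs had a Pearson r of −0.01 and a Spearman rho of −0.22 over 16320 genes, which are not independent replicates.

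**Figure D3:**
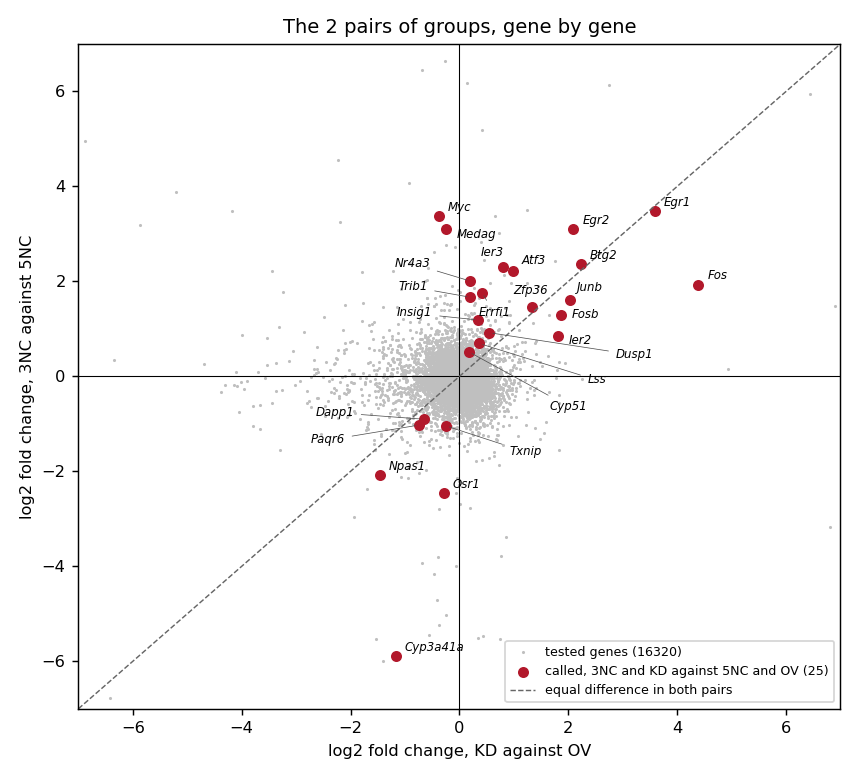
Log2 fold change of KD against OV (x axis) and of 3NC against 5NC (y axis) for the tested genes (grey) and the 25 genes that passed in the average of both (red, named); the dashed line marks equal values, and 6 grey genes beyond the axis limits are not drawn. Egr1, Btg2, Zfp36, Junb and Fosb lie near the line on the upper right, Fos lies to the right of it, and Myc and Medag lie left of 0 on the x axis.

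The other 13 genes that passed overlapped between the sides, and for most of them 3NC stood apart from the 3 other groups. Medag, a gene linked to fat cell formation (gene 70717, chromosome 5, 149367641 to 149431723), had 1.34, 1.62 and 1.66 CPM in KD, 12.1, 14.2 and 9.71 CPM in 3NC, 2.18, 2.005 and 1.31 CPM in OV, and 1.46, 0.920 and 1.79 CPM in 5NC. KD lay within the range of OV and 5NC. Its average over both pairs passed (1.43 ± 0.19, adjusted p = 0.00237), yet it had −0.25 ± 0.27 in KD against OV and 3.10 ± 0.25 in 3NC against 5NC. The difference between the pairs passed (3.35 ± 0.37, adjusted p = 0.00452), and without 3NC the value was −0.06.

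Myc, a transcription factor that drives growth (gene 17869, chromosome 15, 61985341 to 61990361), had 0.828, 0.842 and 0.319 CPM in KD, 4.88, 4.93 and 4.20 CPM in 3NC, 1.09, 0.689 and 0.811 CPM in OV, and 0.366, 0.328 and 0.640 CPM in 5NC. Again 3NC alone was high. Myc had −0.38 ± 0.37 in KD against OV and 3.37 ± 0.34 in 3NC against 5NC (difference 3.75 ± 0.50, adjusted p = 0.0117). Its call on the average of the pairs was lost without 3NC (adjusted p = 0.977), without 5NC (0.291), and with 7 of the 12 libraries left out singly (0.0727 to 0.171), the exceptions being KD replicate 3, 3NC replicate 2, OV replicates 1 and 3 and 5NC replicate 3. Nor did it pass without 3NC replicate 2 and OV replicates 1 and 3 (0.0797). Errfi1, a feedback inhibitor of the EGF receptor (gene 74155, chromosome 4, 150853796 to 150868889), had 39.9, 32.4 and 30.7 CPM in KD, 83.5, 87.9 and 75.4 CPM in 3NC, 32.1, 22.6 and 22.7 CPM in OV, and 25.02, 26.1 and 21.5 CPM in 5NC. All KD libraries lay above the OV and 5NC libraries except OV replicate 1. Errfi1 rose by 1.09 ± 0.10 (adjusted p = 9.68e-05) on the average of the pairs, which differed (1.35 ± 0.20, adjusted p = 0.0218). Trib1, a pseudokinase linked to MAP kinase signalling, averaged 4.76 CPM in KD, 13.7 CPM in 3NC, 4.14 CPM in OV and 4.30 CPM in 5NC. Its pairs differed as well (1.47 ± 0.23, edgeR adjusted p = 0.034).

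Insig1, which holds back the sterol sensor of cholesterol synthesis, averaged 24.1 CPM in KD, 54.1 CPM in 3NC, 19.0 CPM in OV and 23.7 CPM in 5NC, and rose by 0.77 ± 0.09 (adjusted p = 0.00109). Ier3, an early gene that affects cell survival, averaged 2.20 CPM in KD, 7.77 CPM in 3NC, 1.27 CPM in OV and 1.56 CPM in 5NC (1.55 ± 0.20, adjusted p = 0.00237). Nr4a3, an orphan nuclear receptor, averaged 3.31 CPM in KD, 11.8 CPM in 3NC, 2.89 CPM in OV and 2.94 CPM in 5NC (1.10 ± 0.19, adjusted p = 0.027). The pairs of these 3 genes did not pass the test of their difference (adjusted p = 0.171 for Insig1, 0.237 for Ier3 and 0.123 for Nr4a3). Without 3NC none of them passed (adjusted p = 0.792, 0.767 and 0.917 in the same order). Insig1 did not pass without OV (adjusted p = 0.0504) nor Nr4a3 without 5NC (0.145). Leaving out 1 library kept the calls of Insig1 and Ier3, while Nr4a3 passed in 4 of 12 such fits, those without 3NC replicate 1 or 2 or OV replicate 1 or 3 (adjusted p = 0.0540 to 0.124 in the rest). With 3NC replicate 2 and OV replicates 1 and 3 left out together, these 3 genes passed (0.74 for Insig1, 1.55 for Ier3 and 1.03 for Nr4a3), as did Medag (1.29), Errfi1 (1.16) and Trib1 (0.76). Nr4a2 (1.02 ± 0.28) did not overlap between the sides but did not pass (adjusted p = 0.332), and Nr4a1 had 0.28 ± 0.10.

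On the lower side, Txnip, an inhibitor of thioredoxin that follows glucose and insulin, averaged 92.1 CPM in KD, 51.8 CPM in 3NC, 109 CPM in OV and 107 CPM in 5NC. It fell by 0.64 ± 0.10 on the log2 scale (adjusted p = 0.0217), with −0.25 ± 0.14 in KD against OV and −1.04 ± 0.15 in 3NC against 5NC. Osr1, a zinc finger factor of mesenchyme, averaged 1.77 CPM in KD, 0.467 CPM in 3NC, 2.16 CPM in OV and 2.58 CPM in 5NC (−1.37 ± 0.22, adjusted p = 0.0179). Npas1, a bHLH-PAS transcription factor, differed from these in that KD was low too: it averaged 1.37 CPM in KD, 0.680 CPM in 3NC, 3.77 CPM in OV and 2.91 CPM in 5NC (−1.77 ± 0.30, adjusted p = 0.027). Only 5NC replicate 1 (1.34 CPM) reached into its KD range of 0.828 to 1.75 CPM. Cyp3a41a, a cytochrome P450 whose reads close paralogs can share, had 30 reads in KD, 0 in 3NC, 69 in OV and 22 in 5NC. Against 3 reads over the group it was at least 7.34-fold lower in 3NC than in 5NC, and none of these 4 genes passed without 3NC. Nor did any pass without 3NC replicate 2 and OV replicates 1 and 3 (adjusted p = 0.253 for Txnip, 0.102 for Osr1, 0.0795 for Npas1 and 0.0797 for Cyp3a41a). Without OV, Txnip (adjusted p = 0.181), Npas1 (0.0950) and Cyp3a41a (0.290) did not pass, and without 5NC Osr1 did not (0.0983). With 1 library left out, Npas1 passed in 2 of 12 fits, those without OV replicate 3 or 5NC replicate 1 (adjusted p = 0.0525 to 0.0987 in the rest). Txnip was lost without KD replicate 1 or 3, 3NC replicate 1 or 3, or OV replicate 1 or 2 (adjusted p = 0.0560 to 0.0987). Osr1 was lost without KD replicate 1 or 3, 3NC replicate 3, OV replicate 2 or 5NC replicate 1 (0.0506 to 0.0749), and Cyp3a41a without KD replicate 2 or 3, 3NC replicate 3 or 5NC replicate 1 (0.0513 to 0.0684).

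**Figure D4:**
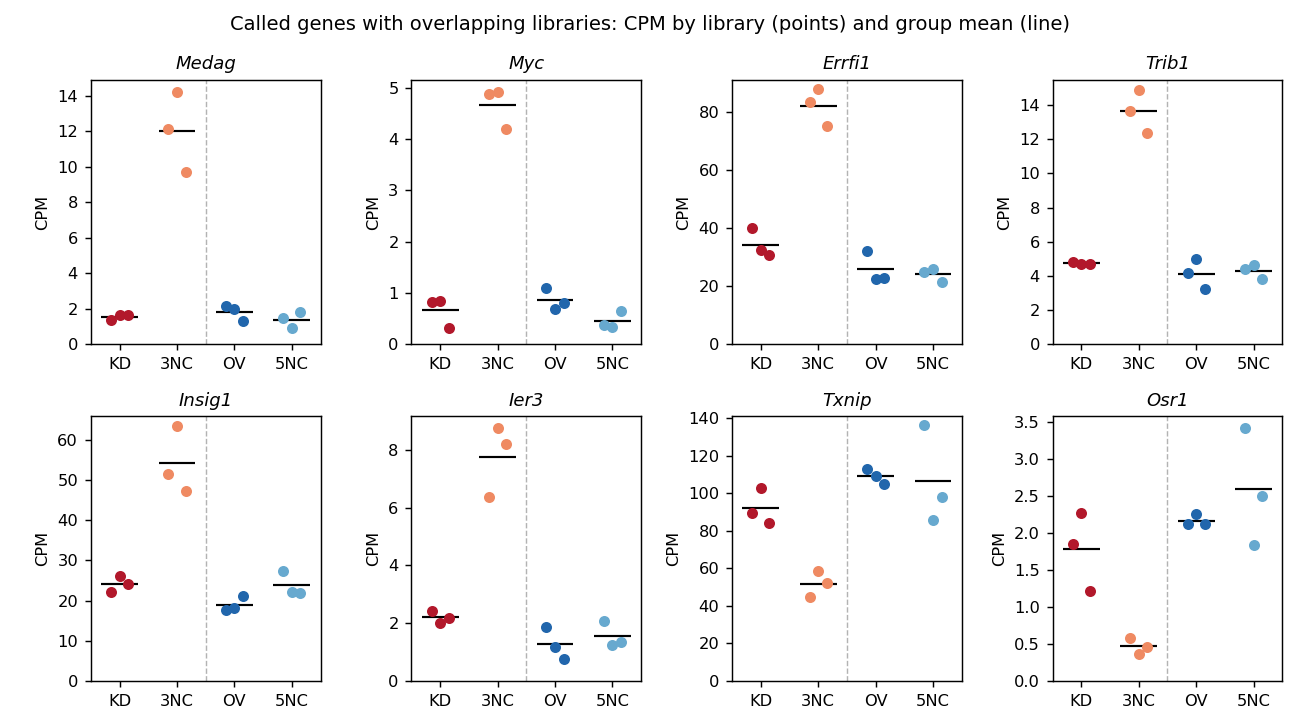
CPM (y axis, from 0) in each library, by group (x axis), for 8 genes that passed and whose sides overlap; points are libraries and lines group means. In each panel the 3 points of 3NC stand apart from the other 9, high for 6 genes and low for Txnip and Osr1.

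The immediate early list as a whole leaned to KD and 3NC. Of 50 tested members, 13 rose and 0 fell, where 0.116% of all genes rose, and 29 were higher at an unadjusted p under 0.05 (2.57% of all genes). Its median log2 fold change was 0.28, against −0.00 over all genes tested, with 0.26 in KD against OV and 0.39 in 3NC against 5NC. The list was compiled with earlier results of these data known. Its mean log2 CPM around the 12-library mean was 0.15 to 0.27 in KD and 0.38 to 0.48 in 3NC, against −0.55 to −0.18 in OV and −0.38 to −0.15 in 5NC. No library of KD or 3NC overlapped one of OV or 5NC. Without 3NC replicate 2 and OV replicates 1 and 3, 12 members rose, with Fosl2 among them and without Atf3 and Myc, and the median was 0.27. Within it, the KLF genes did not pass (0 of 4), with Klf2 at 0.19 ± 0.07 and Klf4 at 0.08 ± 0.07. Among other stress lists, the median was 0.01 for heat shock genes, −0.02 for hypoxia and glycolysis genes and −0.06 for p53 targets. Of 29 tested p53 targets, 1 rose (0.116% of all genes): Btg2, which the immediate early list also holds.

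Of 31 tested cholesterol synthesis genes, 3 rose, where 0.116% of all genes did: Insig1, Lss and Cyp51, which encode the sterol regulator above, lanosterol synthase and lanosterol demethylase. Lss averaged 29.1 CPM in KD, 42.6 CPM in 3NC, 22.6 CPM in OV and 26.3 CPM in 5NC (0.53 ± 0.09, adjusted p = 0.027). Cyp51 averaged 127 CPM in KD, 164 CPM in 3NC, 113 CPM in OV and 115 CPM in 5NC (0.34 ± 0.06, adjusted p = 0.0433). The median of the list was 0.20, with 0.17 in KD against OV and 0.18 in 3NC against 5NC, and 14 members were higher and 2 lower at an unadjusted p under 0.05, against 2.57% and 4.2% of all genes. Tested alone, 3NC against 5NC had 5 members higher (0.288% of all genes) and KD against OV 0 (0.0429%). Around the mean of all libraries, the list had 0.24 to 0.35 (mean log2 CPM) in 3NC and −0.21 to 0.13 in KD. The KD range overlapped OV (−0.32 to −0.12) and 5NC (−0.09 to 0.05). The list median was 0.051 without 3NC and 0.097 without OV. Hmgcs1 (0.44 ± 0.10) and Sqle (0.12 ± 0.07) were among those that did not pass, and 0 members passed without 3NC or without OV. Without 5NC Insig1 alone passed (adjusted p = 0.0815 for Lss and 0.145 for Cyp51). With 1 library left out, Lss and Cyp51 each passed in 3 of 12 fits, those without 3NC replicate 1, 3NC replicate 2 or OV replicate 3 (adjusted p = 0.0627 to 0.113 for Lss and 0.0844 to 0.177 for Cyp51 in the rest). Insig1, Lss, Cyp51 and Hmgcs1 passed without 3NC replicate 2 and OV replicates 1 and 3, with a median of 0.22.

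Interferon response and antigen presentation genes had the largest list medians, on the lower side of KD and 3NC. With all 12 libraries edgeR called none of them. The interferon list had a median of −1.005 and the antigen presentation list −0.90; by edgeR 0 of 54 and 0 of 28 members passed, and 44 and 23 were lower at an unadjusted p under 0.05 (4.2% of all genes). DESeq2 called 7 and 6 members lower (0.201% of all genes), and limma with voom and sample weights 13 and 10 (0.496%). The pairs were unequal: the interferon median was −1.95 in KD against OV and −0.13 in 3NC against 5NC, and the antigen presentation median −1.45 and −0.18. Without OV the medians were −0.55 and −0.33. The edgeR calls moved with single libraries: 5 and 5 members were lower without OV replicate 3, and 4 and 5 without 3NC replicate 2. Without OV replicate 1 or OV replicate 2 there were 0 and 0. Over all genes, fits with 1 library left out called 1 to 34 lower, with 34 without OV replicate 3. Without 3NC replicate 2 and OV replicates 1 and 3, the medians were −1.28 and −1.04. That fit drops the highest 3NC library of both lists (mean log2 CPM 0.66 and 0.32 around the mean of all libraries). The OV library it keeps, replicate 2, had the highest interferon level of all libraries (1.41).

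H2-K1, a classical MHC class I heavy chain, shows the pattern by library: 66.1, 65.8 and 70.1 CPM in KD, 62.9, 101 and 66.8 CPM in 3NC, 247, 173 and 132 CPM in OV, and 112, 85.7 and 78.1 CPM in 5NC. OV stood above the 3 other groups, and 3NC replicate 2 reached into the 5NC range (−0.85 ± 0.17, adjusted p = 0.191). Ifit3, an interferon-induced antiviral gene with close paralogs, averaged 1.07 CPM in KD, 1.22 CPM in 3NC, 4.07 CPM in OV and 2.09 CPM in 5NC (−1.35 ± 0.27, adjusted p = 0.0902). Lgals3bp, a secreted glycoprotein, had 9.17 to 13.6 CPM in KD, 11.9 to 14.6 CPM in 3NC, 16.3 to 34.0 CPM in OV and 16.5 to 23.1 CPM in 5NC, and is 1 of 3 interferon list members, with Ifi35 and Xaf1, that lay lower without overlap (0.141% of all genes). None of the 3 passed (adjusted p = 0.0744 for Lgals3bp, 0.191 for Ifi35 and 0.555 for Xaf1). Macrophage markers also leaned lower. They and the interferon list lay on the same side of the mean of all libraries in every library except 5NC replicate 2. Both were low in KD, in 3NC replicates 1 and 3 and in 5NC replicate 3, and high in the rest. The sizes of the 2 lists differed in some libraries. Around the mean of all libraries, interferon genes had 1.41 and macrophage markers 0.19 (log2 CPM) in OV replicate 2. The values were 0.63 and −0.21 in 5NC replicate 2, and 0.05 and 0.44 in 5NC replicate 1. Both lists were high in OV replicate 1 (1.29 and 1.02). Of 26 macrophage markers tested, 17 were lower at an unadjusted p under 0.05 (4.2% of all genes) and 0 passed by edgeR, with a median of −0.61. That median was −0.80 in KD against OV and −0.28 in 3NC against 5NC, and it was −0.38 without OV replicate 1, −0.30 without OV and −0.43 without 3NC replicate 2 and OV replicates 1 and 3. Their summed level was 591 to 641 CPM in KD, 586 to 654 CPM in 3NC, 660 to 929 CPM in OV and 647 to 744 CPM in 5NC, with none of the defining markers Adgre1, Csf1r, C1qa, C1qb and Cd68 at 0 in any library. Their part in the result was not tested.

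**Figure D5:**
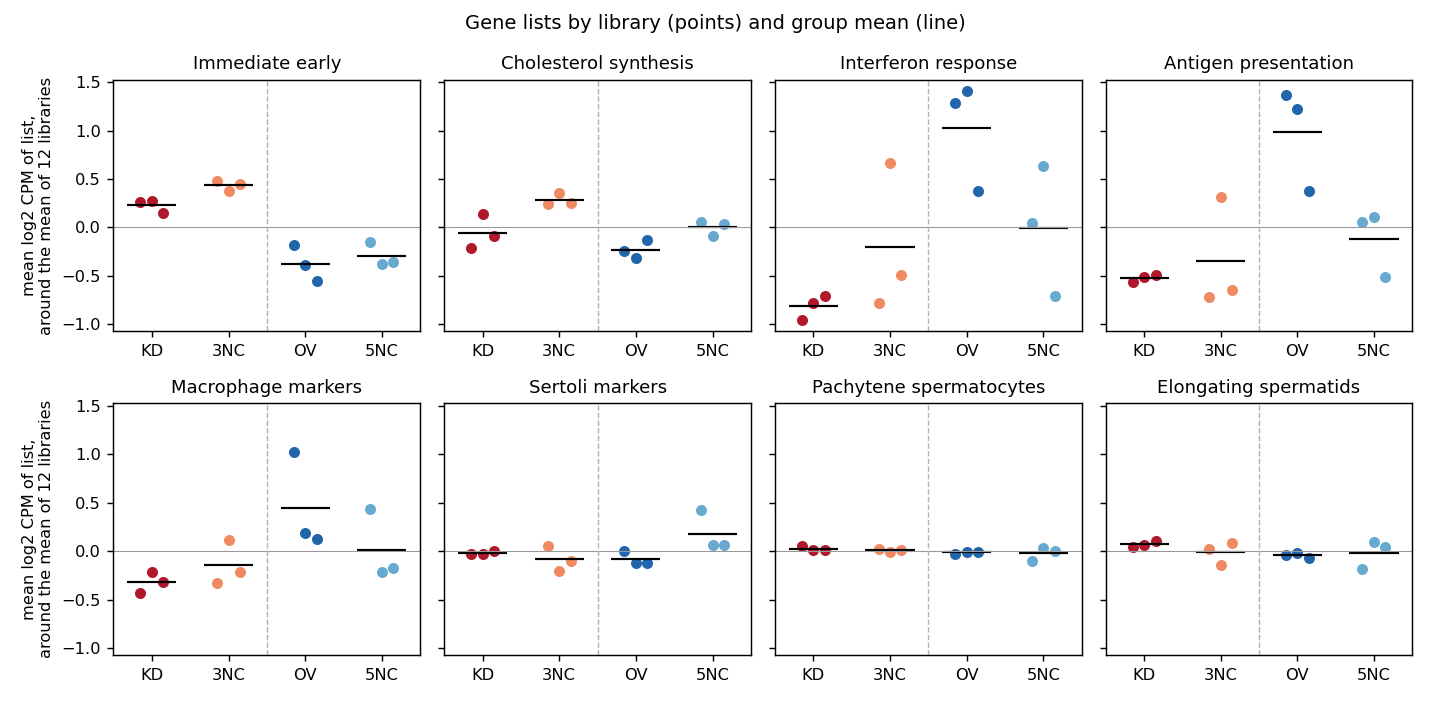
Mean log2 CPM of the members of 8 gene lists around the mean of the 12 libraries (y axis, log2 units), by group (x axis); points are libraries and lines group means. Immediate early genes lie above 0 in all KD and 3NC libraries and below it in all OV and 5NC libraries, interferon and antigen presentation genes are highest in OV replicates 1 and 2, and both germ cell lists stay within 0.2 of 0.

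Germ cell lists had medians near that of all genes. These were 0.01 for spermatogonial genes, 0.03 for meiosis, 0.04 for pachytene spermatocytes, 0.05 for round spermatids, 0.06 for elongating spermatids and −0.01 for the flagellum, and 0 members of these 6 lists passed by edgeR, by DESeq2 or by limma with voom. At an unadjusted p under 0.05, the same lists held 1, 1, 0, 2, 1 and 1 members higher in KD and 3NC (2.57% of all genes). Their tested members numbered 27, 33, 30, 32, 36 and 43. On the lower side there was 1 flagellum gene and 0 in the others (4.2% of all genes). By sign alone, 15, 23, 25, 29, 31 and 20 members were higher in the same order, against 7958 of all 16320 genes. Without 5NC replicate 1 the medians were 0.016 for round and 0.019 for elongating spermatids. Some of these medians average pairs of opposite sign. In 3NC against 5NC and in KD against OV, spermatogonial genes had −0.06 and 0.09 and meiosis genes 0.11 and −0.07. Elongating spermatid genes had −0.01 and 0.12 and flagellum genes 0.03 and −0.04. Pachytene and round spermatid genes were positive in both pairs. Small RNA machinery genes, which process and load the short RNAs of knockdown vectors, had a median of −0.02 over 24 tested members, with 0 at an unadjusted p under 0.05 in either direction and 0 called by the other tools. Sensors of foreign nucleic acid had a median of −0.27, with 0 of 29 called by edgeR or DESeq2 and 11 lower at an unadjusted p under 0.05 (4.2% of all genes). Limma with voom called 2 of them lower, Ifih1 and Tmem173 (0.496% of all genes). Ifih1 is also in the interferon list and among its calls by that tool. The median was −0.31 without 3NC replicate 2 and OV replicates 1 and 3, and −0.07 without OV. Among somatic lists, Sertoli markers had a median of −0.13, Leydig and steroid genes −0.02, peritubular and stromal genes −0.06 and endothelial markers −0.06, each with 0 calls by edgeR and at most 3 members at an unadjusted p under 0.05 in either direction. With single libraries left out, these medians ranged from −0.17 to −0.04, −0.08 to 0.04, −0.10 to 0.03 and −0.11 to 0.05 in the same order, and the Sertoli median was −0.04 without 5NC replicate 1. These values average both pairs, which had opposite signs. Sertoli markers had a median of 0.06 in KD against OV and −0.27 in 3NC against 5NC. In the same order, peritubular genes had 0.16 and −0.16, endothelial markers 0.12 and −0.14 and Leydig genes 0.10 and −0.02. By edgeR at an unadjusted p under 0.05, 3NC against 5NC had 12 of 34 Sertoli and 9 of 25 peritubular members lower (969 of 16320 genes), and 1 and 1 higher. KD against OV had 3 and 4 higher (490 of 16320 genes) and 0 and 0 lower. In these 4 lists DESeq2 called 1 peritubular gene lower and limma with voom 1 Leydig gene higher. Erythrocyte genes had a median of 0.49 over 6 tested members and lymphocyte and granulocyte markers −0.18 over 12, with 0 calls by any of the 3 tools. These moved between 0.32 (without 5NC replicate 2) and 0.82 (without OV replicate 1) for erythrocyte genes, and between −0.42 (without OV replicate 2) and −0.09 (without OV replicate 1) for lymphocyte and granulocyte markers. Epididymis and fat genes had a median of −0.12 over 20, with Medag the 1 call. The remaining lists had medians between −0.05 (junctions) and 0.08 (Y-linked genes), and some of these average pairs of opposite sign. Cytokine and chemokine genes had 0.20 in 3NC against 5NC and −0.27 in KD against OV, and ribosomal protein genes −0.16 and 0.09. By edgeR, 1 of 38 NRF2 and oxidative stress genes fell. Of 30 glucocorticoid and FOXO targets, 2 rose and 1 fell (0.116% and 0.0368% of all genes). The epididymal gene Crisp1 averaged 2.46 CPM in KD, 2.48 CPM in 3NC, 3.24 CPM in OV and 64.4 CPM in 5NC, with a log2 fold change of −2.56 (adjusted p = 0.772) that was −0.39 without 5NC, −0.74 without OV replicate 2 and −4.50 without KD replicate 2.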

How the data were processed

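Total RNA of mouse testis was sequenced in 12 libraries, 3 in each of KD, 3NC, OV and 5NC, with groups and replicate numbers taken from the sample titles. Expected counts, which the authors deposited as reads estimated for each gene and library without normalisation (per the file headers), were 88% whole within 1e-06 and were rounded here. The authors also deposited normalised values whose unit, FPKM, was inferred here from reads and library totals (5204 genes, coefficient of variation 0.528%). The build was mm10 per the submitters' processing notes; aligner, counter, strandedness and annotation were not given in the sources used here. A further 18 per-sample columns match no sample here and were left out.

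Testing used edgeR 4.0.16 (R 4.3.3): TMM, filterByExpr (minimum count 10, minimum total 15), robust quasi-likelihood F tests, one mean per group and the contrast of the mean of 3NC and KD with the mean of 5NC and OV. The same fit gave 3NC against 5NC, KD against OV and the difference between these pairs. A gene passed at a Benjamini-Hochberg adjusted p under 0.05 over 16320 genes. Fold changes carry a prior count of 0.125, and SE is the size of that change divided by the square root of F. CPM uses TMM library sizes. Where a group had 0 reads, its fold uses 3 reads over the group. Libraries held 15448442 to 16355720 reads, so 3 reads correspond to 0.183 to 0.197 CPM, a limit of counting error only. The common biological coefficient of variation was 0.13. The steps were tested on simulated data. DESeq2 1.42.0 and limma 3.58.1 gave alternatives, with other filters, scalings, units and sample choices.

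The groups, gene lists (37 lists, 1294 of 1326 entries matched) and family groupings were chosen with earlier results of these data known. Named genes passed, averaged 1 CPM or more and did not overlap 6 against 6, up to 12 in each direction; the rule adds the 3 members of each list with the smallest p and up to 3 genes for the difference between pairs. Other genes that passed, and family members, were named after their values were seen, and fewer list members are given than the rule allows; some genes are not reported here. Coordinates and promoters come from RefSeq (GRCm38.p6), which matched 20564 identifiers (99.3%). Motifs were searched on both strands. Same-numbered libraries of 3NC and 5NC, and of KD and OV, deviated together with correlations of at most 0.04, so the numbers were not taken as pairs.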

Additional observations from a re-analysis of the deposited data

Results flagged for a closer look

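For 10 genes the 2 pairs differed by the test of the difference itself (3NC against 5NC minus KD against OV, edgeR adjusted p under 0.05, 0.0613% of the genes tested). Ccl7, a monocyte chemokine, had a difference of 5.46 ± 0.70, with 0.149 CPM in KD, 3.10 CPM in 3NC, 0.716 CPM in OV and 0.318 CPM in 5NC. Myc (3.75), Medag (3.35), Trib1 (1.47) and Errfi1 (1.35), described above, were higher in 3NC and less so or not at all in KD. Lhfpl3, a membrane protein gene (3.30 ± 0.49), averaged 0.920 CPM in KD, 1.91 CPM in 3NC, 1.74 CPM in OV and 0.357 CPM in 5NC. Ifrd1, an interferon-related developmental regulator (1.29 ± 0.16), averaged 20.6 CPM in KD, 41.7 CPM in 3NC, 24.2 CPM in OV and 19.999 CPM in 5NC. Sema4b, a semaphorin (1.39 ± 0.22), averaged 9.12 CPM in KD, 25.7 CPM in 3NC, 12.2 CPM in OV and 13.0 CPM in 5NC. Cox7b, a subunit of cytochrome c oxidase (1.48 ± 0.24), averaged 8.12 CPM in KD, 14.8 CPM in 3NC, 15.1 CPM in OV and 9.87 CPM in 5NC. Kcnk3, a potassium channel (−2.74 ± 0.38), averaged 3.89 CPM in KD, 1.82 CPM in 3NC, 1.33 CPM in OV and 4.17 CPM in 5NC. Cox7b and Kcnk3 passed in neither pair alone (adjusted p = 0.26 and 0.0962 in 3NC against 5NC, 0.0936 and 0.08 in KD against OV), and some of these genes were named after their values were seen.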

How the results depend on the processing

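With 3 libraries a group, genes of few reads are the least certain. Counts of genes that passed moved with the test: DESeq2 gave 81 (40 higher, 41 lower), 153 for 3NC against 5NC, 139 for KD against OV and 89 for the difference between the pairs; limma with voom and sample weights gave 136 (55 higher, 81 lower), 134, 198 and 53. On log2(FPKM + 0.1) 3 genes were lower, 3NC against 5NC had 31 and the difference 6; on log2(FPKM + 1) 2 were lower and 3NC against 5NC had 32. Ignoring the groups within a side gave 11 (9 higher, 2 lower). With the replicate number as a block, which the correlations gave no ground to treat as pairing, 21 genes passed, with 50 for 3NC against 5NC, 31 for KD against OV and 13 for the difference.

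Without 3NC, 7 genes passed (7 higher, 0 lower); without KD, 53 (47 higher); without 5NC, 16 were lower; without OV, 10. Without 3NC replicate 2 and OV replicates 1 and 3, 84 passed (31 higher, 53 lower). Without 3NC replicate 2, OV replicates 2 and 3 and 5NC replicate 1, chosen after seeing the data as the libraries least like others of their group, 250 passed (74 higher, 176 lower); this choice lowers the spread by construction. Single libraries left out gave 16 to 57 in all, 14 to 23 higher, 1 to 34 lower, 16 to 76 for 3NC against 5NC, 5 to 74 for KD against OV and 4 to 23 for the difference.

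Of the gene values under the alternatives, 1277 kept direction and side of the threshold, 149 no longer passed, 68 newly passed and 17 changed sign. Signs changed without 3NC for Medag (−0.062), Ifrd1 (−0.10), Sema4b (−0.47) and Socs3 (−0.051), without KD for Cox7b (0.27) and Kcnk3 (−0.37), without 5NC for Lhfpl3 (−0.38) and Ccl7 (−0.031), and without OV for Cox7b (0.15) and Kcnk3 (−0.65). Egr4 had −0.026 by limma with voom, −0.087 without 3NC replicate 2 and OV replicates 1 and 3, −0.14 without KD and −0.31 without OV, and −0.14 to 0.16 with single libraries left out. The cause was not tested.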

Other observations

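Among genes that did not pass, 20 lay higher in every KD and 3NC library than in any OV or 5NC library, with log2 fold changes of 0.09 to 1.02, and 21 lay lower, with −1.55 to −0.18. Most of the higher ones differed little. Atf4, the transcription factor of the integrated stress response, had 0.24 ± 0.06 (edgeR adjusted p = 0.2), and Asns, asparagine synthetase, a known ATF4 target, 0.15 ± 0.05 (adjusted p = 0.39). The receptor kinase inhibitor Spry2 had 0.67 ± 0.18 (adjusted p = 0.327). The 21 lower ones were of varied kinds. By edgeR, the smallest adjusted p among them were 0.0586 (Slc44a3), 0.0669 (Capn3), 0.0744 (Lgals3bp) and 0.133 (Jade2). Those named next have immune roles and ranked behind these. Itgb7, a leukocyte integrin chain, had −1.47 ± 0.37 (adjusted p = 0.248), and H2-Q9, an MHC class I gene whose reads relatives can share, −1.55 ± 0.42 (adjusted p = 0.327). Pycard, the inflammasome adaptor ASC, had −1.03 ± 0.28 (adjusted p = 0.324), and Lgals9, a galectin, −0.60 ± 0.18 (adjusted p = 0.403). These genes were named after their values were seen, and none passed.

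Socs3, a feedback inhibitor of cytokine signalling, averaged 1.79 CPM in KD, 10.9 CPM in 3NC, 2.14 CPM in OV and 1.60 CPM in 5NC (1.26 ± 0.28, edgeR adjusted p = 0.197). Its level was high in 3NC alone, as for Medag and Myc. Stxbp3, a syntaxin-binding protein of membrane fusion, averaged 13.8 CPM in KD, 20.2 CPM in 3NC, 28.9 CPM in OV and 17.6 CPM in 5NC, and fell in KD against OV by 1.06 ± 0.17 on the log2 scale (adjusted p = 0.032). Gm1966, a gene model with uncertain read assignment, averaged 0.663 CPM in KD, 1.81 CPM in 3NC, 3.22 CPM in OV and 2.21 CPM in 5NC (−2.27 ± 0.36 in KD against OV, adjusted p = 0.032).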
